A study of Mus musculus with 6 samples.

Results

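Myc and Myb are 2 of the 31253 genes in the count tables, found by their symbols. They were chosen because their counts and their shares of positive cells were already known to differ between diabetic and control mice in some blood lymphocytes, so their own differences between those groups are described here without a test. Myc (ENSMUSG00000022346) lies on chromosome 15 at 61985391 to 61990374, forward strand, and Myb (ENSMUSG00000019982) on chromosome 10 at 21124935 to 21160984, reverse strand, in GRCm38 (mm10) with GENCODE M21. The reads come from 3′-enriched libraries, so a count stands for the whole gene and not for an exon or a transcript form.

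Peripheral blood mononuclear cells of male mice aged 12 to 13 weeks were profiled one by one on the BD Rhapsody platform after a Ficoll gradient and red cell lysis. The 3 control libraries (Con) came from mice injected intraperitoneally with saline. The 3 diabetic libraries (T2D) came from mice injected by the same route with streptozotocin (STZ), a toxin of insulin-producing beta cells, in a model that the study's title calls high-fat diet (HFD)/STZ-induced type 2 diabetes; no source used here names the controls' diet. Whether each library is 1 mouse or a pool is not stated, so every spread and p-value below is between libraries and may be technical.

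Both genes encode DNA-binding regulators of lymphocyte growth and development. Myc pairs with Max to raise ribosome production, metabolism and cell growth when antigen or cytokine receptors fire, and its transcript and protein are short-lived. Myb, which works with the coactivators p300 and CBP (Ep300, Crebbp), is needed in blood progenitors and in developing B and T cells, and among mature CD8 T cells it is known from naive and stem-like memory cells.

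The 6 libraries held 49407 barcodes, of which 47596 were kept as cells (7124 to 8725 in each library; the median cell held 2777 to 3190 UMIs; a UMI is a molecular tag, so a count is of captured molecules). Any 2 libraries shared 65 to 89 barcodes, at most 1.129% of the smaller library, and no pair of libraries was close to identical. Cells were sorted by marker transcripts into gates: 21036 B, 3643 CD4 T, 4782 CD8 T and 752 NK cells. All 10 markers of each gate's own cell type were present in every library. CD4 T cells numbered 349 to 565 per Con library and 655 to 901 per T2D library, CD8 T cells 504 to 713 and 896 to 1037, and NK cells 71 to 96 and 123 to 194.

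In this blood most Myc UMIs were in gated B cells. No single gate held most of the Myb UMIs, and the largest gated share was in CD8 T cells. Many Myb UMIs lay in cells outside the B, T and NK gates. Of the 17739 Myc UMIs in all kept cells, 10163 (57.3%) were in gated B cells and 2181 (12.3%) in gated CD8 T cells. Of the 5895 Myb UMIs, 1591 (27.0%) were in CD8 T cells, 1024 (17.4%) in B cells and 754 (12.8%) in CD4 T cells. NK cells gave 86 Myc and 44 Myb UMIs in all 6 libraries, so single NK values rest on few molecules.

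The order of Myc levels was B, CD8 T, CD4 T and NK cells. With edgeR's quasi-likelihood test over 10258 genes and the library as a block, Myc was higher in B than in CD8 T cells by 0.71 ± 0.16 (log2 ± SE, n = 6 libraries, adjusted p = 0.000917). It was lower in CD4 T than in CD8 T cells, at -1.28 ± 0.22 (adjusted p = 0.000246). CD4 T and NK cells, the neighbours at the low end, differed by 0.30 ± 0.47 (adjusted p = 0.634), which is within the error. B cells exceeded CD4 T cells by 1.99 ± 0.20 and NK cells by 2.30 ± 0.37, and CD8 T cells exceeded NK cells by 1.59 ± 0.40 (adjusted p = 1.74e-07, 4.64e-05 and 0.0036). Most genes differ between cell types, so these calls stand against a background of 69.8% of genes called between B and CD8 T, 65% between B and CD4 T, 54.1% between B and NK, 31.2% between CD4 and CD8 T, 48.8% between CD4 T and NK and 47.7% between CD8 T and NK cells.

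Myb followed another order, CD8 T, then CD4 T, then B and NK cells. It was lower in CD4 T than in CD8 T cells by the same test, at -0.48 ± 0.13 (adjusted p = 0.00522), and the highest adjusted p was 0.0440 when 1 library was left out. CD4 T cells exceeded NK cells by 1.65 ± 0.30 (adjusted p = 7.9e-05). B and NK cells did not separate, with a difference of -0.01 ± 0.35 (adjusted p = 0.988). In B cells Myb was far lower than in CD8 T cells, at -2.14 ± 0.12 (adjusted p = 1.54e-13). Across the 24 gate-by-library sums the log2 levels of the 2 genes had a Pearson correlation of -0.04, given as a description because the sums share libraries.

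Near relatives hardly contributed. Mycn had at most 4 UMIs and Mycl at most 12 UMIs in any gate over all libraries. Mybl1, the relative best known from germ cells and germinal centre B cells, had 210 UMIs in B cells, or 2.06 to 5.10 CPM by library (CPM, UMIs of the gene per 1000000 UMIs of the gate), and the cell cycle regulator Mybl2 had 48. Gm26577, an antisense gene inside Myb at 21145094 to 21154374 on the forward strand, had at most 3 UMIs in a gate, but no source used here says whether the counting used strand.

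In CD8 T cells both genes were higher in the T2D libraries. Myc stood at 59.7, 67.1 and 87.2 CPM in Con 1, 2 and 3 and at 91.2, 139 and 145 CPM in T2D 1, 2 and 3. All 3 T2D libraries were above all 3 Con libraries, with Con 3 and T2D 1 nearly touching. The means were 71.3 ± 14.2 and 125 ± 29.7 CPM (SD, n = 3 each), and the fitted log2 fold change was 0.75 ± 0.25 (SE). With looser gates the groups overlapped, at 63.0 to 90.8 CPM in Con and 89.2 to 142 CPM in T2D. Of all genes tested in CD8 T cells, 9.51% had T2D libraries all above the Con libraries on the fit's scaled CPM and 2.65% were called in either direction; nothing is read from this for Myc, which was chosen on the same contrast. In a sum over cells, more cells with the transcript and more transcript per cell cannot be told apart.

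Myb in CD8 T cells stood at 77.2, 52.4 and 50.5 CPM in the Con libraries and at 74.8, 89.5 and 99.5 CPM in the T2D libraries. The groups overlapped because Con 1 was above T2D 1. The means were 60.0 ± 14.9 and 87.9 ± 12.4 CPM (SD, n = 3 each), with a log2 fold change of 0.52 ± 0.14 (SE), and 0.72 without Con 1. NK marker transcripts also moved within this gate. The 10 NK markers together rose from 3118 to 3327 CPM in Con to 5081 to 6706 CPM in T2D, with 3 of 10 called higher by edgeR and none at 0. The 10 B markers together overlapped at 1220 to 1702 and 1147 to 1261 CPM, but 4 of 10 were called lower in T2D, and 2 of these kept their calls whichever library was left out. The 10 red cell markers together overlapped at 121 to 408 and 324 to 3068 CPM. The part of these markers in the Myc and Myb values was not tested.

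**Figure D1:**
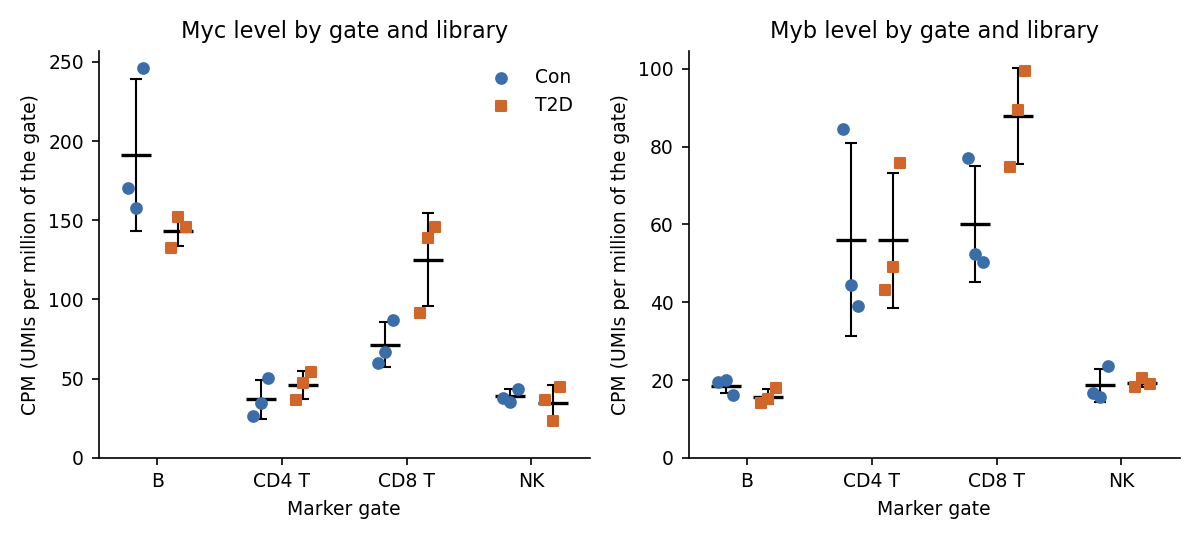
Myc (left) and Myb (right) in CPM of each marker gate; each point is 1 library (circles Con, squares T2D) and the black bars are the mean ± SD of 3 libraries. Myc is highest in B cells and Myb in T cells, and in CD8 T cells the T2D squares of Myc, from 91.2 to 145 CPM, lie above all Con circles.

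In B cells both genes were lower in the T2D libraries. Myc stood at 170, 158 and 246 CPM in the Con libraries and at 133, 152 and 146 CPM in the T2D libraries. The groups did not overlap, but the gap between Con 2 and T2D 2 was narrow and Con 3 stood far above the other 5 libraries. The means were 191 ± 47.8 and 143 ± 9.74 CPM (SD, n = 3 each). The log2 fold change was -0.43 ± 0.21 (SE), -0.41 with the library number as a block, and -0.20 without Con 3. In B cells 9.92% of genes tested had all T2D libraries below all Con libraries, and 1.54% were called in either direction, or 175 genes; with the block the count was 462.

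Con 3 had the highest Myc level of the Con libraries in all 4 gates. Myb in B cells was low, at 19.5, 19.9 and 16.3 CPM in Con and 14.1, 15.1 and 17.9 CPM in T2D. T2D 3 lay above Con 3, so the groups overlapped, and the log2 fold change was -0.26 ± 0.12 (SE). T cell markers moved within the B gate as well. The 10 together stood at 185 to 245 CPM in Con and 294 to 328 CPM in T2D. Of these, 3 of 10 were called higher (Lck, Thy1 and Lat), and Cd28 was also called with the block (adjusted p = 0.0140). The 10 NK markers together stood at 89.8 to 128 CPM in Con and 151 to 177 CPM in T2D, with 2 of 10 called higher, or 3 with the block. The part of these markers in the B cell values was not tested.

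In CPM, CD4 T cells gave no separation of the groups for either gene. Myc stood at 26.1, 34.4 and 50.5 CPM in Con and 36.4, 47.4 and 54.1 CPM in T2D (log2 fold change 0.19 ± 0.19, SE). Myb stood at 84.6, 44.5 and 39.1 CPM in Con and 43.1, 49.0 and 75.8 CPM in T2D (log2 fold change 0.01 ± 0.39, SE). A single library was high for Myb in each group, Con 1 and T2D 3, and leaving out either moved the fold change between 0.37 and -0.28. Of the genes tested in CD4 T cells, 21.6% had groups that did not overlap, and 5.82% were called.

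In NK cells Myc stood at 37.7, 35.1 and 43.7 CPM in Con and at 36.6, 23.2 and 44.9 CPM in T2D, from 9 to 26 UMIs per library. Myb stood at 16.8, 15.6 and 23.6 CPM in Con and at 18.3, 20.7 and 19.0 CPM in T2D, from 4 to 11 UMIs. The groups overlapped for both genes at this depth, and Myb was too sparse to be fitted there. Of the genes tested in NK cells, 13.3% had groups that did not overlap and 0.287% were called. Over all kept cells Myb stood at 29.0 to 32.9 CPM in Con and 37.8 to 49.1 CPM in T2D, without overlap, while Myc overlapped at 102 to 165 and 91.2 to 107 CPM. The share of all genes without overlap was not computed over all kept cells. The CD4 T and CD8 T gates, where Myb was highest, also held more cells in T2D, as given above. The part of these cell numbers in the pooled level was not tested.

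The share of cells with at least 1 UMI was also taken after each cell had been thinned to 1500 UMIs, because CD8 T cells held more UMIs (median 3961 to 4499) than B cells (2582 to 2844). Without thinning, 19.6 to 25.4% of Con and 23.4 to 32.2% of T2D CD8 T cells had a Myc UMI, and 10.1 to 13.1% and 12.8 to 19.2% had a Myb UMI. After thinning, Myc-positive CD8 T cells made up 7.71, 9.69 and 9.37% in Con and 11.9, 14.9 and 16.9% in T2D. All T2D shares were above all Con shares, with means of 8.92 ± 1.06 and 14.5 ± 2.51% (SD, n = 3 each). Myb-positive CD8 T cells made up 5.83, 5.33 and 4.90% in Con and 8.05, 10.5 and 9.40% in T2D. The means were 5.35 ± 0.468 and 9.31 ± 1.22%, with no overlap at this depth. At 1000 UMIs per cell the Myb shares did overlap, at 4.46 to 5.50% in Con and 5.42 to 6.99% in T2D, as did the CPM of Myb, while the Myc shares stayed apart at 5.89 to 6.72% and 7.98 to 10.9%.

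Thinned shares of Myc-positive B cells were 16.5, 15.4 and 23.3% in Con and 13.6, 16.4 and 15.5% in T2D, which overlapped. Myb-positive B cells were rare, at 1.92, 2.08 and 1.797% in Con and 1.17, 1.69 and 1.47% in T2D, all T2D libraries being lower. Without thinning the Myb shares of B cells overlapped, at 3.04 to 3.52% and 2.26 to 3.10%. A positive B cell held 1.49 Myc UMIs on average in Con and 1.38 in T2D after thinning, without overlap between the groups, whereas in CD8 T cells the Myc UMIs per positive cell overlapped. CD4 T cells had a Myc share of 4.69, 4.13 and 4.54% in Con and 5.38, 6.15 and 6.68% in T2D, so all T2D libraries were higher there at 1500 UMIs. At 1000 UMIs these shares overlapped, at 2.31 to 5.69% and 2.95 to 5.15%. They also overlapped without thinning, at 8.31 to 13.3% and 10.3 to 14.1%. Thinning was a random draw, and the Con 3 share was 4.54% at 1500 UMIs but 5.69% at 1000. At 1500 UMIs the Myb shares in CD4 T cells overlapped at 4.54 to 6.74% and 4.04 to 8.38%, and in NK cells both genes overlapped.

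Monocytes and neutrophils, gated the same way, served as a background for free RNA. After thinning, 6 of 553 monocytes (1.08%) and 5 of 472 neutrophils (1.06%) had a Myc UMI, and 0.542 and 0.424% had a Myb UMI. Before thinning their median depths were 2714 to 3873 and 2095 to 2654 UMIs. The Myc shares of B, CD8 T and CD4 T cells were above 1.08% in every library, and so were the Myb shares of both T cell gates, while the Myb shares of B cells, from 1.17 to 2.08%, were nearer to the background. Thinning left out 7.38% of Con and 7.17% of T2D B cells and 3.24% and 3.07% of CD8 T cells as too shallow.

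**Figure D2:**
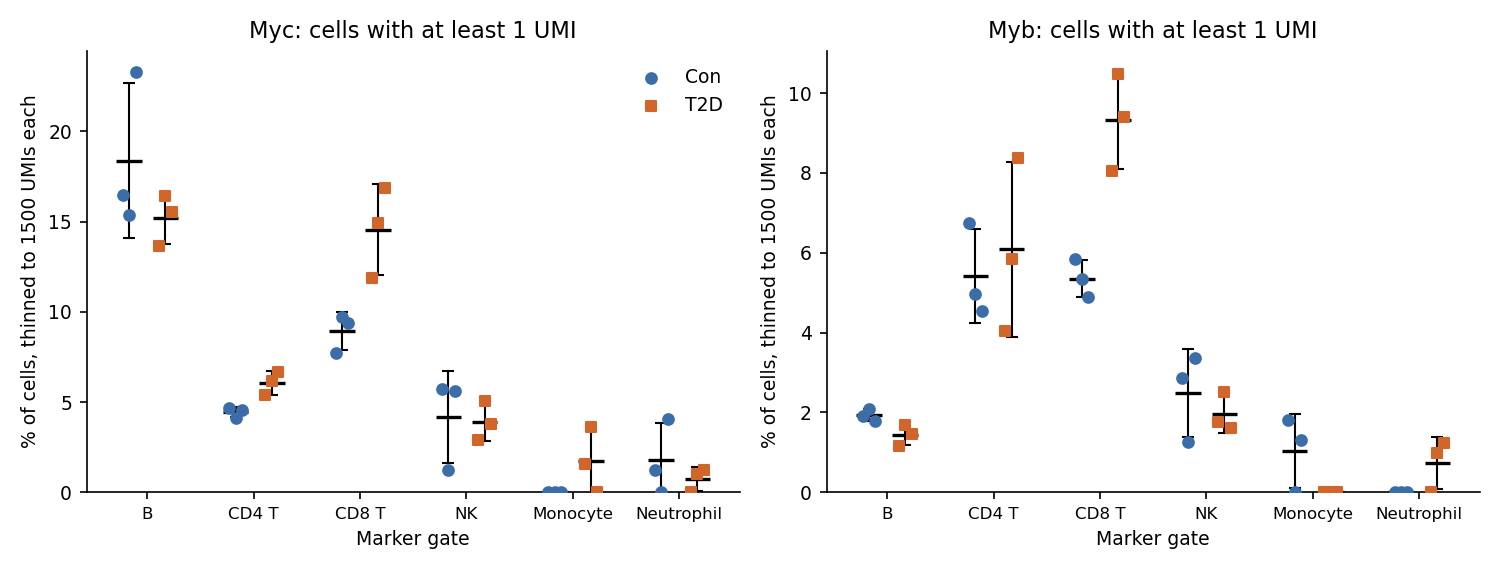
Percent of cells with at least 1 Myc (left) or Myb (right) UMI after thinning to 1500 UMIs per cell; each point is 1 library (circles Con, squares T2D), black bars are the mean ± SD of 3, and bars that would pass below 0 end at the axis. Monocytes and neutrophils show the background; the T2D squares of CD8 T cells, 11.9 to 16.9% for Myc and 8.05 to 10.5% for Myb, lie above all Con circles.

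CD8 T cells differ by history, so the gate was split on Ccl5, a chemokine of memory and effector cells. Myc was higher in Ccl5-negative than in Ccl5-positive cells in 4 of 6 libraries, at 107 ± 47.5 against 86.9 ± 21.3 CPM (SD, n = 6 libraries). Myb was higher in Ccl5-negative cells in 5 of 6, at 78.2 ± 24.7 against 69.8 ± 19.9 CPM. Both differences between the means were smaller than the SD over libraries and were not tested.

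The makeup of the CD8 gate differed between the groups. Ccl5-positive cells were 25.4 to 32.4% of CD8 T cells in Con and 39.2 to 40.6% in T2D. Among Ccl5-negative CD8 T cells Myc stood at 56.4, 68.9 and 85.1 CPM in Con and 103, 160 and 170 CPM in T2D, with a log2 fold change of 0.99 ± 0.24 (SE). Myb there stood at 69.6, 54.2 and 50.6 CPM in Con and 81.1, 106 and 108 CPM in T2D, at 0.73 ± 0.13. Neither gene overlapped between the groups in Ccl5-negative cells. The share of all genes without overlap was not computed for this sub-gate. In the whole CD8 T gate 9.51% had all T2D libraries above all Con libraries.

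In Ccl5-positive cells both genes overlapped, Myc at 64.1 to 91.1 against 74.4 to 113 CPM and Myb at 49.3 to 97.9 against 65.6 to 88.7 CPM. This split was drawn with the CD8 difference known, and the difference between the sub-gates' fold changes was not tested.

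**Figure D3:**
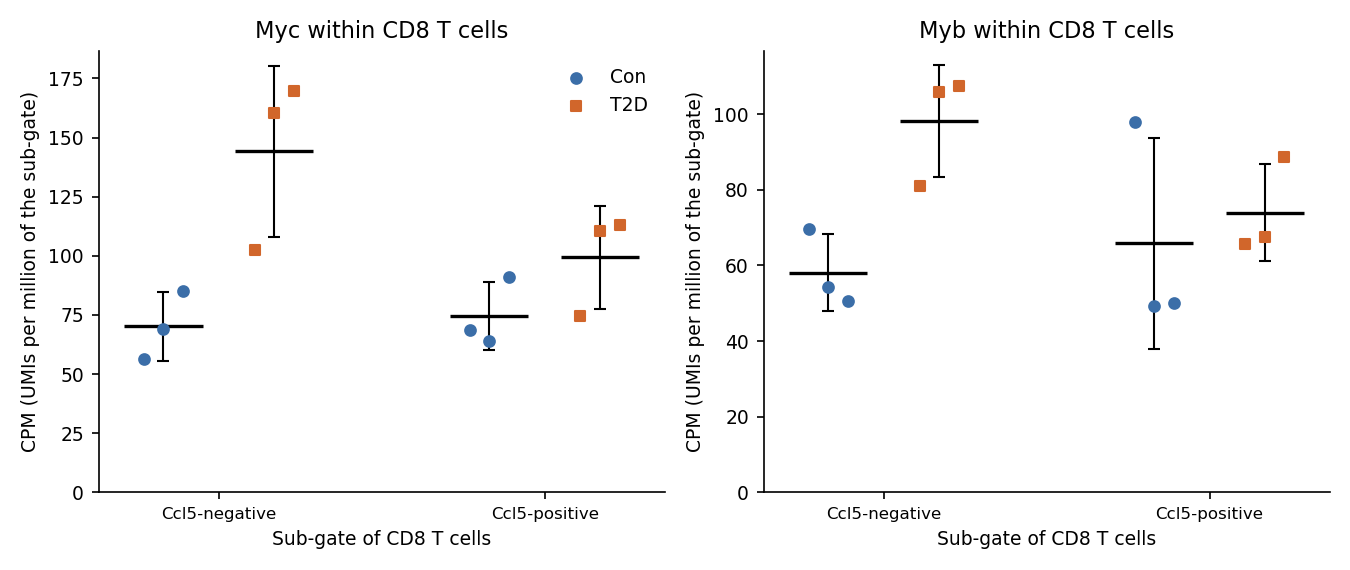
Myc (left) and Myb (right) in CPM within CD8 T cells split by Ccl5 transcripts; each point is 1 library (circles Con, squares T2D) and black bars are the mean ± SD of 3. The T2D squares lie above all Con circles in Ccl5-negative cells, and the groups overlap in Ccl5-positive cells.

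In B cells the genes divided between subsets. Cells with Vpreb3, a surrogate light chain gene retained by recently formed B cells, had more Myb than Vpreb3-negative cells in 6 of 6 libraries (23.7 ± 4.73 against 13.1 ± 2.09 CPM, SD). They had less Myc in 6 of 6 libraries (142 ± 47.9 against 183 ± 36.7 CPM). Cells with Fcrl5, an Fc receptor-like gene of innate-like and memory B cells, had the most Myc, 279 ± 50.9 against 163 ± 41.5 CPM in Fcrl5-negative cells, higher in 6 of 6 libraries. Only 547 cells were Fcrl5-positive.

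Vpreb3-negative B cells showed lower levels of both genes in T2D without overlap. Myc stood there at 189, 179 and 251 CPM in Con and 143, 166 and 168 CPM in T2D, and Myb at 13.9, 16.6 and 14.0 CPM in Con and 11.6, 11.6 and 11.1 CPM in T2D. In Vpreb3-positive cells both genes overlapped between the groups, Myc at 120 to 238 CPM in Con and 110 to 130 CPM in T2D, and Myb at 20.3 to 29.2 and 18.2 to 28.7 CPM. Whether the sub-gates differ in this was not tested. The share of all genes with T2D libraries all below the Con libraries was computed only for the whole B gate, at 9.92%. Vpreb3-positive cells were 34.3 to 34.5% of B cells in Con and 35.1 to 38.5% in T2D.

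Within a library, cells with and without the transcript can be compared over all other genes, a contrast that did not choose Myc or Myb. Each cell was thinned to 1500 UMIs, and positive and negative cells were summed per library and tested with edgeR, library as a block (n = 6). Myc-positive B cells, 402 to 868 per library, differed in 177 of 9201 genes (1.92%), with 148 higher (1.61%) and 29 lower (0.315%). Among the higher genes were many that antigen receptors switch on soon after binding. Fosb, an AP-1 subunit, was at 119 against 72.0 scaled CPM, a log2 difference of 0.72 ± 0.08 (SE, adjusted p = 1.56e-15). Nr4a1, an orphan receptor that marks recent B cell receptor signalling, was at 536 against 354 scaled CPM, at 0.60 ± 0.04 (adjusted p = 6.4e-45). Nid1, Rilpl2 and the Krüppel-like factor Klf4 rose by 0.82, 0.65 and 0.61.

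Of the early response list, 17 of 22 genes tested were higher in Myc-positive B cells and none was lower, with a median log2 difference of 0.28 against 0.01 over all genes. Of the 17, 12 kept their call whichever library was left out; Dusp2, Egr3, Pim3, Junb and Ier5 lost it in at least 1 such fit. The lower genes included Vpreb3 itself, at 168 against 232 scaled CPM (-0.44 ± 0.06, adjusted p = 1.56e-11), and the scaffold gene Akap12 at -0.63. Sox4, a factor of immature B cells, Farsa and Fbxo8 were lower by adjusted p = 0.0150, 0.0380 and 0.0465, and each lost its call in 4 or more of 6 fits without 1 library. Platelet and red cell markers were also low in Myc-positive B cells, with medians of -0.47 and -0.68 and 1 of 5 and 0 of 5 called lower, and their part in these differences was not tested.

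The classical targets of Myc moved little with its transcript. Of 30 nucleolar and ribosome biogenesis genes, only Npm1, a nucleolar chaperone, was called higher in Myc-positive B cells (0.12, adjusted p = 0.00598), and not without Con 1 or Con 3; 23 of 30 were above 0 and the median was 0.11. Of 29 metabolic and growth genes, Eif4a1, the RNA helicase of translation initiation, was called (0.23, adjusted p = 0.00148), with a median of 0.07. None of 8 tested genes of the Max network was called by edgeR, and 1 had an unadjusted p under 0.05. DESeq2 gave an adjusted p to only 890 genes in this comparison, so nothing is read from its lack of calls.

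Some early response genes were lower in T2D over all B cells. There 5 of 25 were called lower and none higher, where 0.79% of all genes were called lower, with a median log2 fold change of -0.25 against 0.00 over all genes; 12 of 25 were lower with the library number as a block. Junb, an AP-1 subunit, went from 1755 ± 124 to 1050 ± 126 scaled CPM (SD, n = 3 each; -0.74 ± 0.08, adjusted p = 0.000677). The kinase gene Pim3 was at -0.70, the NF-kB inhibitor Nfkbid at -0.48 and the activation marker Cd69 at -0.33. Nr4a3 was at -1.23, from 8.26 to 3.53 scaled CPM on average. Pim3, Junb and Nfkbid kept their calls whichever library was left out, Nr4a3 lost its call in 5 of 6 such fits and Cd69 in 4. The Con and T2D libraries of this contrast are the ones on which Myc itself was lower.

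**Figure D4:**
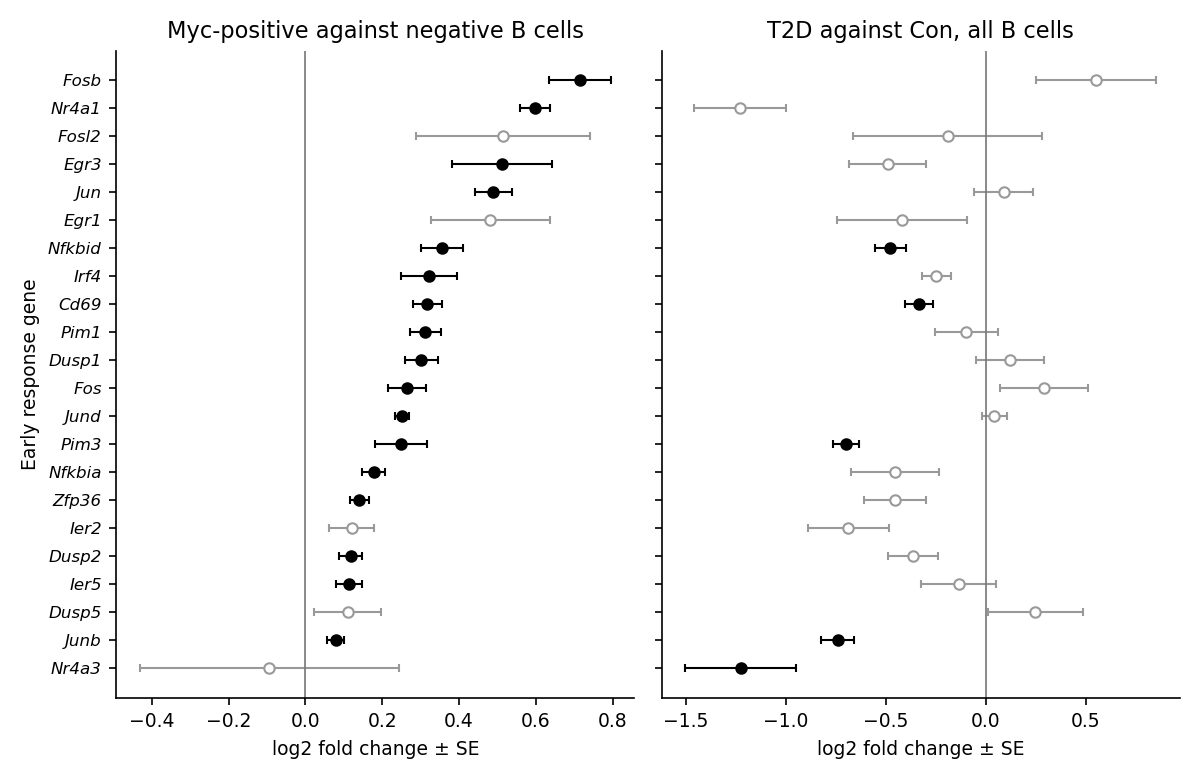
Early response genes in B cells: log2 difference ± SE between Myc-positive and Myc-negative cells within libraries (left) and between T2D and Con over all B cells (right), with filled points for adjusted p under 0.05 and open grey points otherwise. On the left 17 of 22 genes are filled, all above 0; on the right the filled points are all below 0.

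In CD8 T cells, where Myc was higher in T2D, 9 of 25 early response genes were called lower and none higher, where 1.42% of all genes were called lower, with a median of -0.41 against -0.01 over all genes. Nr4a3 was at -1.44 ± 0.17 (adjusted p = 3.83e-06), and Nfkbid, Fosl2, Pim3 and Ier2 lay between -0.69 and -0.65. The phosphatase gene Dusp5 and the kinase gene Pim1 went the other way, with all T2D libraries above all Con libraries, and were not called (0.27 and 0.23, adjusted p = 0.0506 and 0.0790). Within CD8 T cells, 1 of 20 early response genes was called higher in Myc-positive cells (Jun, 0.33, adjusted p = 0.00679), and that call was lost without Con 3, T2D 2 or T2D 3. Of the 20, 15 were above 0 and 7 had an unadjusted p under 0.05 with edgeR. Their median log2 difference was 0.20 against 0.02 over all genes. Fewer positive cells entered than in B cells, at 37 to 147 against 402 to 868 per library. In CD4 T cells 8 of 23 were lower in T2D (3.22% of all genes), led by Nr4a3 at -2.54 ± 0.17 (adjusted p = 2.12e-10). In NK cells 3 of 20 were lower (0.18% of all genes), Nr4a1 at -0.77, Nfkbia at -0.71 and Junb at -0.62, of which Junb alone kept its call whichever library was left out.

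Myc-positive CD8 T cells, 37 to 147 per library, were poor in cytotoxic transcripts. They differed in 71 of 5763 genes (1.23%), 46 higher (0.798%) and 25 lower (0.434%). The split turned to 5 higher and 13 lower at 1000 UMIs, 1 and 49 without the filter on low counts and 10 and 13 without T2D 2. With DESeq2 it was 32 higher and 6 lower, over only 763 genes with an adjusted p. Gzma, a granzyme of cytotoxic granules, was at 53.0 against 322 scaled CPM (-2.73 ± 0.18, adjusted p = 3.6e-25). The effector chemokine receptor Cx3cr1 was at -3.01, Gzmb at -2.18, the effector regulator Bhlhe40 at -1.90 and the activating receptor Klrk1 at -1.54. Of 8 NK markers tested, 3 were lower and none higher, with a median of -0.72 against 0.02 over all genes. Rises were small: Snhg15 0.73, Gm26740 0.71, Atp5mpl 0.44, Fam241a 0.41 and the ribosomal protein gene Rpl36a 0.24, and of these only Rpl36a kept its call in every fit without 1 library. Of 25 nucleolar genes Npm1 alone was called (0.20, adjusted p = 0.00504). Of these 25, 20 were above 0, with a median of 0.14 against 0.02 over all genes. No gene was called of 28 metabolic and growth genes, of which 22 were above 0, with a median of 0.16.

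Myb-positive CD8 T cells, 28 to 102 per library, differed in 44 of 5557 genes (0.792%), 19 higher (0.342%) and 25 lower (0.45%), or 4 and 19 at 1000 UMIs and 6 and 48 without the filter. They too were poor in cytotoxic genes. Gzma was at 53.5 against 316 scaled CPM (-2.25 ± 0.19, adjusted p = 3.24e-28), Cx3cr1 at -2.78, the inhibitory receptor Klrc1 at -1.79, and the effector regulator Zeb2 and the chemokine receptor Ccr2 at -1.98 and -1.67; Zeb2 lost its call without T2D 1 or T2D 3 and Ccr2 without T2D 1. With DESeq2 the calls of Klrc1, Zeb2 and Ccr2 were lost (adjusted p = 0.109, 0.122 and 0.157). Cx3cr1 and Zeb2 were sparse in Myb-positive cells, at 10.2 and 9.92 scaled CPM on average. Cx3cr1 was too low to be tested in 1 fit without a library. Of 8 NK markers, 4 were lower, with a median of -0.69. Ccl5, singled out after its value was seen, was at 1440 against 3577 scaled CPM (-1.31 ± 0.06, adjusted p = 3.74e-100).

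The genes that rose with Myb in CD8 T cells were of other kinds. Smc4, a condensin subunit, was at 2218 against 1266 scaled CPM (0.77 ± 0.06, adjusted p = 8.94e-33). Slc28a2b, a nucleoside transporter, was at 1.11 and the ciliary transport gene Ift80 at 0.83. The checkpoint receptor Ctla4 was at 1.29 and lost its call without Con 1, and the receptor Gpr174 was at 0.74 and lost it without T2D 1 or T2D 3 and with DESeq2 (adjusted p = 0.188). Ift80 lost its call without T2D 3; it lies 167 bases from Smc4 on the opposite strand. Slc28a2b has a near-identical copy, Slc28a2, so its counts are uncertain.

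Of the Myb-linked T cell genes, 1 of 11 was higher in Myb-positive CD8 T cells and 1 was lower. The higher member was Tcf7, the TCF1 factor of naive and memory T cells (0.30, adjusted p = 0.000654). The lower member was Zeb2. Ccnd2, a cyclin on the list of Myc targets, was also lower (-0.58, adjusted p = 0.000476). Ets1, which can bind DNA beside Myb, was higher at 0.27 (adjusted p = 0.00141), 1 of 6 tested genes among relatives and cofactors.

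**Figure D5:**
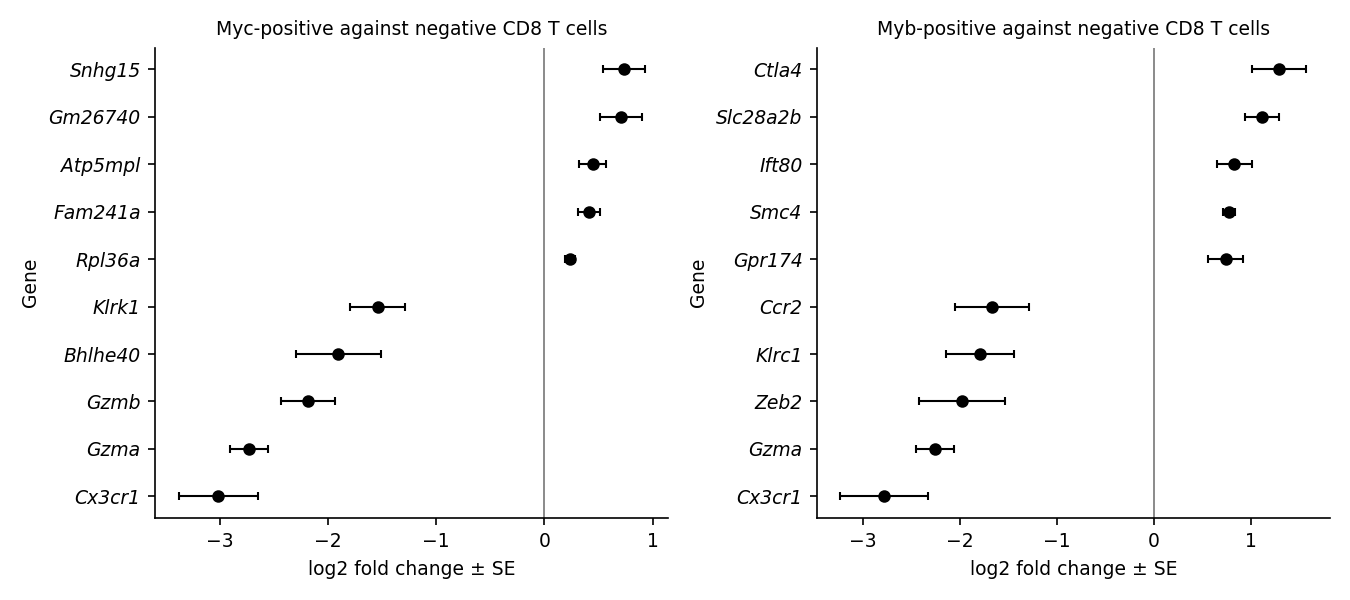
Log2 difference ± SE between positive and negative CD8 T cells within libraries for the genes named for Myc (left) and Myb (right), n = 6 libraries. In both panels the cytotoxic genes Gzma and Cx3cr1 lie between -3.01 and -2.25, and the higher genes differ between the panels.

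Myb-positive CD4 T cells, 23 to 74 per library, differed in 79 of 4625 genes (1.71%), 10 higher (0.216%) and 69 lower (1.49%); with DESeq2 size factors in edgeR the split was 18 higher and 56 lower. Smc4 was again higher, at 2723 against 1487 scaled CPM (0.87 ± 0.08, adjusted p = 3.14e-22), with Slc28a2b at 1.17, Itm2a at 1.15, Ift80 at 0.87 and the glucosylceramide synthase gene Ugcg at 0.82. Igfbp4, a binding protein of insulin-like growth factors, was lower, at 630 against 1360 scaled CPM (-1.07 ± 0.12, adjusted p = 1.43e-16). Il7r, the interleukin-7 receptor of resting T cells, was at -0.78 (adjusted p = 2.83e-12) and Tmem64 at -0.998. The lower calls of Myo6 (-1.67), Il18r1 (-1.46) and S1pr4 (-0.98) were lost in 1, 2 and 4 fits without 1 library. Myc-positive CD4 T cells were too few in 1 library, at 16, for this comparison.

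Few cells carried both transcripts. In thinned CD8 T cells 43 of 4632 had both, where 47.1 would be found if the 2 were independent within libraries, a ratio of 0.914 that ran from 0.632 to 1.25 by library. These cells were 7.52% of the Myc-positive and 12.0% of the Myb-positive CD8 T cells. In B cells 58 of 19504 had both, at a ratio of 1.02.

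Few partners and targets of the 2 genes passed the test between T2D and Con. As a background, 0.746% of all genes were called higher in B, 2.6% in CD4 T, 1.23% in CD8 T and 0.108% in NK cells. None of the Max network genes was called in any gate by edgeR, over 8, 8, 8 and 7 genes tested in B, CD4 T, CD8 T and NK cells, nor by DESeq2; 1, 1, 0 and 1 had an unadjusted p under 0.05. With the block, Mxd4 and Mlxip were called higher in B cells (adjusted p = 0.0071 and 0.0120). Of 30 nucleolar genes in CD8 T cells, where Myc was higher, Grwd1 was called (0.67, adjusted p = 0.0405), and not in 5 of 6 fits without 1 library. Of 29 metabolic genes there, the glutamine transporter Slc1a5 was called (0.29, adjusted p = 0.0203), lost without Con 1, Con 2, T2D 1 or T2D 2. The median log2 fold changes in CD8 T cells were 0.01 for the nucleolar and -0.03 for the metabolic list, against -0.01 over all genes. In B cells no gene of either target list was called by edgeR, with unadjusted p under 0.05 for 3 of 30 nucleolar and 7 of 30 metabolic genes, and DESeq2 called 1 metabolic gene. With the block 4 were called, Npm3 lower and Slc1a5, Ccnd2 and Odc1 higher.

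In CD4 T cells 3 nucleolar genes were called, Wdr12 higher (0.53) and Utp20 (-0.50) and Npm1 (-0.23) lower, and of these Wdr12 kept its call in every fit without 1 library. These were 3 of 30 tested, where 5.82% of all genes were called, 2.6% higher and 3.22% lower. Eif4a1 was lower there (-0.42, adjusted p = 0.000108), the only metabolic gene called of 29, a share near that of all genes. Hipk2, a kinase that can mark Myb for degradation, was higher in CD4 T cells (0.71, adjusted p = 0.00558), lost without Con 1, Con 3 or T2D 3; it was the only called gene among those of protein turnover in the 4 gates. Cell cycle genes were called in CD4 T cells alone, 4 of 14 (Birc5 2.11, Top2a 1.73, Ccna2 1.73, Mki67 1.47), a gate in which the CPM of Myc overlapped between the groups.

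Genes linked to Myb in T cells were called in both directions. In CD8 T cells the chromatin organiser Satb1 (-0.29) and the TCF1 relative Lef1 (-0.23) were lower in T2D and Zeb2 (0.94, adjusted p = 0.0221) was higher, 3 of 12 tested where 2.65% of all genes were called. Zeb2 was at 27.8 ± 9.04 scaled CPM in Con and 52.4 ± 9.46 in T2D (SD, n = 3 each), so T2D CD8 T cells had more Zeb2 and more Myb as a gate while Myb-positive cells had less Zeb2. All 3 calls were lost in at least 1 fit without a library: Satb1 without Con 2, Zeb2 without Con 2, Con 3 or T2D 3, and Lef1 in all 6. In CD4 T cells the interleukin-2 receptor chain Il2rb was higher (1.05, adjusted p = 2.55e-06) and Satb1 (-0.49) and Lef1 (-0.33) were lower, and these 3 of 11 tested kept their calls, where 5.82% of all genes were called.

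In B cells Il7r (0.72), Il2rb (0.75) and Tcf7 (0.54), T cell transcripts, were called higher beside the T cell markers given above for that gate; Il2rb and Tcf7 lost their calls in 4 and 2 of 6 fits without 1 library. These were 3 of 13 tested, where 1.54% of all genes were called, and with the block Satb1 and Id3 were called lower as well (adjusted p = 0.0174 and 4.86e-07). The Myb cofactor Cebpb was lower in B cells (-0.43, adjusted p = 0.0145), lost without Con 2 or Con 3, and with the block Ets1 was called lower too (adjusted p = 0.0259). In CD4 and CD8 T cells the cofactor called was Ets1, lower at -0.27 and -0.24, and lost in 3 and 4 of 6 fits without 1 library. In NK cells Tcf7 was lower at -0.95, and lost its call in 5 of 6 fits without 1 library.

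The genes most like each of the pair over the 24 gate-by-library sums, among 10257 compared, followed the cell types. For Myc they were Plac8 (Pearson r = 0.915), Smap2 (0.900), 2700081O15Rik (0.898), Tnfaip8 (0.892) and Slc1a5 (0.890), all highest in B cells. For Myb they were AI854703 (0.944), Klk8 (0.942), Gtf2i (0.942), Cd3d (0.940), which was used to gate T cells, and Lrrc75b (0.940), all highest in CD8 T cells. The 24 sums share 6 libraries, so these values only rank likeness.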

How the data were processed

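The authors deposited, for each library, a sparse matrix of raw UMI counts per gene and barcode with its gene and barcode lists. Per the submitters' processing notes, CASAVA 1.8, UMI-tools, Seurat and build mm10 were used; aligner, annotation and use of strand: not given in the sources used here. Per the labels' protocols, libraries were made by the BD Rhapsody whole-transcriptome workflow and enriched for transcript 3′ ends.

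From these counts, 49025 of 49407 barcodes passed a floor of 200 genes and a ceiling of 20% mitochondrial UMIs; 1429 doublets by a scrublet-type score with 1 threshold (0.277) were removed. The library totals were 23574052 to 32321855 UMIs. Gates used at least 2 UMIs of a lineage sum (Cd79a, Cd79b and Ms4a1 for B; Cd3d, Cd3e and Cd3g with Cd4, or with Cd8a or Cd8b1, for T; Ncr1 and Klrb1c for NK) and none of the other lineages. Ccl5-positive cells had at least 2 Ccl5 UMIs, and other sub-gates at least 1. CPM is a gene's UMIs per 1000000 UMIs of the gate; scaled CPM also uses the fit's TMM factors. 43 gene symbols occur more than once.

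Gate sums per library were tested with edgeR 4.0.16 (TMM, filterByExpr, robust quasi-likelihood, Benjamini-Hochberg over all genes, threshold 0.05) in R 4.3.3, with DESeq2 1.42.0 as an alternative; the code was tested on simulated data. Positive against negative cells needed at least 20 positive cells in each library. Same-numbered Con and T2D libraries deviated together in B cells (correlations 0.269, 0.297 and 0.229) and not in CD4 T (0.019 to 0.061), CD8 T (-0.051 to 0.086) or NK cells (0.004 to 0.048), so blocked values are given beside B cell results where the block changed a call or a count of calls.

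Myc, Myb, the gene lists and the tests were chosen with earlier results of these data known. Named genes are up to 5 called genes per list and gate by size of change; up to 5 higher and 5 lower per positive-negative comparison that moved alike in 6 of 6 libraries at 20 CPM or more; and the 5 genes most correlated with each of the pair. Npm1, Eif4a1, Jun, Ccl5, Tcf7, Ets1, Ccnd2 and Il7r in the positive-negative comparisons, and genes named for losing or gaining a call, were chosen after their values were seen. Of the Myb-linked list, 1 gene is not reported here. Alternatives were another scaling, DESeq2, no filter on low counts, stricter and looser gates, doublets kept, thinning to 1000 UMIs, the block, and leaving out each library. Intervals and errors cover the spread between libraries only.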

Additional observations from a re-analysis of the deposited data

Results flagged for a closer look

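The search covered Myc, Myb and the genes of the lists that were called in a gate. In 4 of these genes the T2D libraries all moved one way in a gate and the other way in another. None of these differences between gates was tested. How many of all genes do so was not counted. Groups that did not overlap were common, at 21.6% of genes in CD4 T and 13.3% in NK cells. Myc and Myb were chosen on this contrast. Myc was higher in T2D by 53.9 CPM on average in CD8 T cells and differed by -47.9 CPM in B cells. With looser gates the Myc levels of CD8 T cells overlapped between the groups. The thinned share of Myb-positive cells was higher by 3.96 percentage points in CD8 T cells and differed by -0.49 points in B cells; at 1000 UMIs the CD8 T shares overlapped.

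Slc1a5, a glutamine transporter on the list of Myc targets, had log2 fold changes of 0.22 in B, 0.20 in CD4 T and 0.29 in CD8 T cells and -0.19 in NK cells. Tcf7, a T cell factor, was at 0.54 in B cells, where T cell markers were also higher, and at -0.16 in CD4 T and -0.95 in NK cells. Groups of 3 libraries are too small for the search for single outlying libraries.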

How the results depend on the processing

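Of 373 values recomputed under alternatives, 327 kept their direction and call or moved less than the allowed spread, 40 moved and 6 were counted as reversed. The 6 are not all the changes of sign. The log2 fold changes of Myc and Myb between T2D and Con were counted only as kept or moved. Among them, Myb in CD4 T cells ran from -0.28 to 0.37 with 1 library left out, and Myc in NK cells from -0.34 to 0.047. Shares of positive cells that changed sign within the spread were counted as kept. With 1 library left out, the log2 fold change in CD8 T cells stayed between 0.64 and 0.93 for Myc and between 0.41 and 0.72 for Myb; in B cells Myc lay between -0.56 and -0.20. The count of genes called between T2D and Con in B cells was 175, 503 without a filter on low counts, and 39 to 305 with 1 library left out (39 without Con 2, 305 without T2D 1, 90 to 104 without any other). In CD4 T cells it was 539, 309 with DESeq2 and 252 to 506 (252 without Con 2, 327 without Con 1). In CD8 T cells it was 263, 169 with DESeq2, 397 without the filter and also 397 with looser gates, 135 to 259 (135 without Con 2, 163 to 174 without T2D 1, T2D 2 or Con 1), and, as an alternative chosen after seeing the data, 139 in Ccl5-negative cells alone, where fewer cells entered. In NK cells it was 16, 3 with DESeq2, 30 with looser gates and 4 to 23 (4 without T2D 2 or T2D 3, 5 without Con 1). For NK cells DESeq2 tested 13256 genes and edgeR 5567.

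The replicate block, with same-numbered libraries paired, gave 462 genes in B cells, 684 in CD4 T, 343 in CD8 T and 25 in NK cells, and log2 fold changes of -0.41 for Myc in B and 0.76 and 0.52 for Myc and Myb in CD8 T cells. Between positive and negative cells, the count of 177 for Myc in B cells was 107 with DESeq2, 97 without the filter, 106 at 1000 UMIs and 121 to 150 without 1 library. DESeq2 gave an adjusted p to 890 genes there and edgeR to 9201, so these 2 counts are not over like sets of genes. The count of 71 for Myc in CD8 T cells was 38 with DESeq2, 18 at 1000 UMIs and 23 to 71 (23 without T2D 2, 31 without T2D 3, 40 without T2D 1). Here too the sets were unlike, at 763 genes with DESeq2 and 5763 with edgeR. The count of 79 for Myb in CD4 T cells was 139 without the filter and 57 to 77 without 1 library, and the 44 in CD8 T cells were 24 with DESeq2, 23 at 1000 UMIs and 28 to 47 (28 without T2D 3). Fewer positive cells remain at 1000 UMIs; Myc in CD4 T cells, and Myb in CD4 T cells at 1000 UMIs, had too few to be run.

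Myb in B against NK cells, at -0.01, was 0.083 without the filter, 0.010 with stricter gates and -0.10 to 0.058 without 1 library. At 1000 UMIs the T2D minus Con difference in positive cells was 0.60 percentage points for Myc in CD4 T cells (1.62 at 1500), 3.25 for Myc (5.62) and 1.26 for Myb (3.96) in CD8 T cells, and 1.03 for Myb in NK cells (-0.53). The cause of these changes was not tested. In NK cells a library held 9 to 26 Myc and 4 to 11 Myb UMIs, fewer than in B, CD4 T or CD8 T cells.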
